A study of Mus musculus with 2 samples.

Results

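The phagocyte NADPH oxidase was examined in M-MDSCs, monocytic myeloid-derived suppressor cells, isolated from tumours that had grown from injected 4T1 cells, a mouse mammary carcinoma line. The hosts were young adult female mice (strain background BABL/c in the labels), starved for 1 day, injected under the skin of the left armpit with 1000000 4T1 cells, and then assigned to a diet at random. On the normal-salt diet (NSD) the chow held 0.4% NaCl and the mice drank tap water. On the high-salt diet (HSD) the chow held 4% NaCl and the drinking water 1% NaCl, and both diets lasted 16 days. Cells were isolated with magnetic beads, mixed in equal numbers within a diet, and hybridised to 1 single-dye (Cy3) Agilent array per diet. With 1 array per diet from pooled mice the diets could not be tested, no p-value is given, and precision is limited by the number of arrays. The 5 subunit genes Cybb, Cyba, Ncf1, Ncf4 and Rac2 were taken by their RefSeq transcripts, which gave 6 probes of the 39413 with a value on both arrays and 5 of 20653 named genes. Each of the 6 probes stood well above background for both diets, and none had a flagged or saturated spot.

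The oxidase is the enzyme with which phagocytes make superoxide. Its catalytic core sits in the membrane as a pair of proteins, gp91phox (also NOX2, encoded by Cybb) and p22phox (Cyba), and each is unstable without the other. On activation, cytosolic proteins, among them p47phox (Ncf1), p40phox (Ncf4) and the GTPase Rac2, move to the membrane and switch the core on. Loss of the core or of p47phox causes chronic granulomatous disease, and in MDSCs the reactive oxygen made by the oxidase is one of the means by which T cells are suppressed.

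The subunits did not differ between the diets in a single direction. Cyba was lower in the HSD group on both of its probes, by 1.32-fold and 1.43-fold, while Rac2 was 1.40-fold, Ncf1 1.39-fold, Cybb 1.19-fold and Ncf4 1.17-fold higher. None of the 6 probes reached the 1.5-fold difference that served as the call, in either direction. Of the 29628 probes that stood well above background on one or both arrays, 10.2% were higher in the HSD group by 1.5-fold or more, 8.91% were lower by as much, and 19.1% were past 1.5-fold either way, against 0 of 6 subunit probes. Of these calls 53.4% were on the higher side, and 42.4% with cyclic loess. In RNA of pooled cells, fewer cells of a type and less RNA per cell cannot be told apart. Signals are given in intensity units as the scanner software extracted them, and each log2 difference is HSD minus NSD after the 75th percentile of each array had been subtracted, which was 252 units (NSD) and 233 units (HSD). The brightness of different probes cannot be compared, so no subunit is ranked by its level.

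For the error of a difference, the only replicate measurements are repeat spots of a probe on an array. Among probes with at least 5 spots and a mean signal within 1 log2 unit of a subunit's, the median SD of the HSD-minus-NSD difference between spots was 0.062 for the signal of Cybb, 0.065 for that of Cyba, Ncf4 and Rac2, 0.068 for Ncf1 and 0.052 for the dimmer Cyba probe. These medians rested on 42 probes at the signal of Cybb but on only 5 at that of Cyba, and single probes reached an SD of 0.59 in the windows of Cybb and of the dimmer Cyba probe. The scanner software gave a wider error of 10.0% of each bright signal, which comes to 0.20 on the log2 scale of a difference. Neither error holds any variation among mice or among isolations of cells.

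In the membrane core, Cybb and Cyba differed in direction. Cybb, the catalytic subunit that passes electrons from NADPH to oxygen, was measured by 1 probe (transcript NM_007807), and its signal was 2366 with the NSD and 2604 with the HSD. Its log2 difference was 0.25, larger than both errors with the scaling used here. Under quantile normalization, cyclic loess and the deposited log2 values it was 0.16, below the software error. Cyba, which stabilises Cybb and offers the docking site for Ncf1, was measured by 2 probes of transcript NM_007806. The brighter Cyba probe had 29933 with the NSD and 20904 with the HSD, a log2 difference of −0.40. The dimmer Cyba probe had 5391 and 3481, a log2 difference of −0.52. Both Cyba probes were thus lower in the HSD group by more than the software error.

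The cytosolic organisers were both higher in the HSD group. Ncf1, which carries the other proteins of the complex to Cyba, gave 12948 on the NSD and 16598 on the HSD array (transcript NM_010876), and its log2 difference was 0.47. Ncf4, which binds a membrane lipid of phagosomes, had 22812 with the NSD and 24730.5 with the HSD (transcript NM_008677), a log2 difference of 0.23. The difference of Ncf4 exceeded the software error by little, 0.23 against 0.20. It was below that error under quantile normalization (0.13), cyclic loess (0.095), the deposited log2 values (0.13) and scaling on detected probes (0.19). The difference of Ncf1 was about as large as that of Rac2.

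The promoter table used here, from RefSeq (assembly GRCm38.p6), was matched by symbol for 3 of the 5 subunits, Cybb, Cyba and Ncf1, which belong to both directions of difference. Ncf4 and Rac2 were not matched. The 180 bases before the transcription start are shown, 5′ to 3′ on the minus strand, with capitals marking matches on either strand to a double GAAA (GAAA, any 2 bases, GAAA), a form of the element read by interferon regulatory factors, or to GGGCGG, the GC box of Sp factors.
Cybb, chrX:9469325-9469504: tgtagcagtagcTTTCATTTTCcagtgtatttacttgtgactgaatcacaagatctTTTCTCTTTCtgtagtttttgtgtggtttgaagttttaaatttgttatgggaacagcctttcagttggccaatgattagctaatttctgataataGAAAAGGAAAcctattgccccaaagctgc
Ncf1, chr5:134229626-134229805: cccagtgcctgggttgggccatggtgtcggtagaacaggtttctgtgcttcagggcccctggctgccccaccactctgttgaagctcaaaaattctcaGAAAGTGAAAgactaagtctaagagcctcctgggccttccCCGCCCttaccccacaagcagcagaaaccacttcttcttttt
Cyba, chr8:122432941-122433120: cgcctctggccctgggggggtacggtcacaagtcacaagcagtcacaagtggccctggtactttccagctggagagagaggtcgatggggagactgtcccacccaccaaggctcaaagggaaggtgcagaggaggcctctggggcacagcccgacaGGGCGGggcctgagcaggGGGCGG
The double GAAA was found at 3 places in the Cybb window, starting 168, 124 and 29 bases before the start, and at 1 place in the Ncf1 window, 82 bases before the start. Cyba had no match to it. Of all 32851 promoter windows of this length, 2.01% held a match. GGGCGG was found at 2 places in the Cyba window and at 1 in that of Ncf1, and 30.2% of all windows held it. No match of one motif overlapped one of the other. The windows also differed in base composition, with 35.6% G and C in Cybb, 53.9% in Ncf1 and 66.1% in Cyba. The arrays measure transcripts and not binding, so a match is a description of the sequence only. The motifs were chosen with the differences of the subunits known, so the matches cannot be read beside the direction of a gene.

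Rac2, the blood-cell GTPase of the complex, was the best measured subunit, since its probe (transcript NM_009008) was printed in 10 spots. The spots gave signals from 21426 to 23027 with a median of 22134 on the NSD array, and from 24404 to 30506 with a median of 29428 on the HSD array. Every one of the 10 HSD signals was above every NSD signal. The log2 difference was 0.49 ± 0.099 (SD, n = 10 spots), higher in the HSD group at 10 of 10 positions, and 1 of the 10 positions reached 1.5-fold. The lowest position stood apart, with a difference of 0.26 against 0.38 for the next, and without it the mean was 0.51 with an SD of 0.062. These spots are repeat measurements of 1 pooled RNA and not replicates of the diet.

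**Figure D1:**
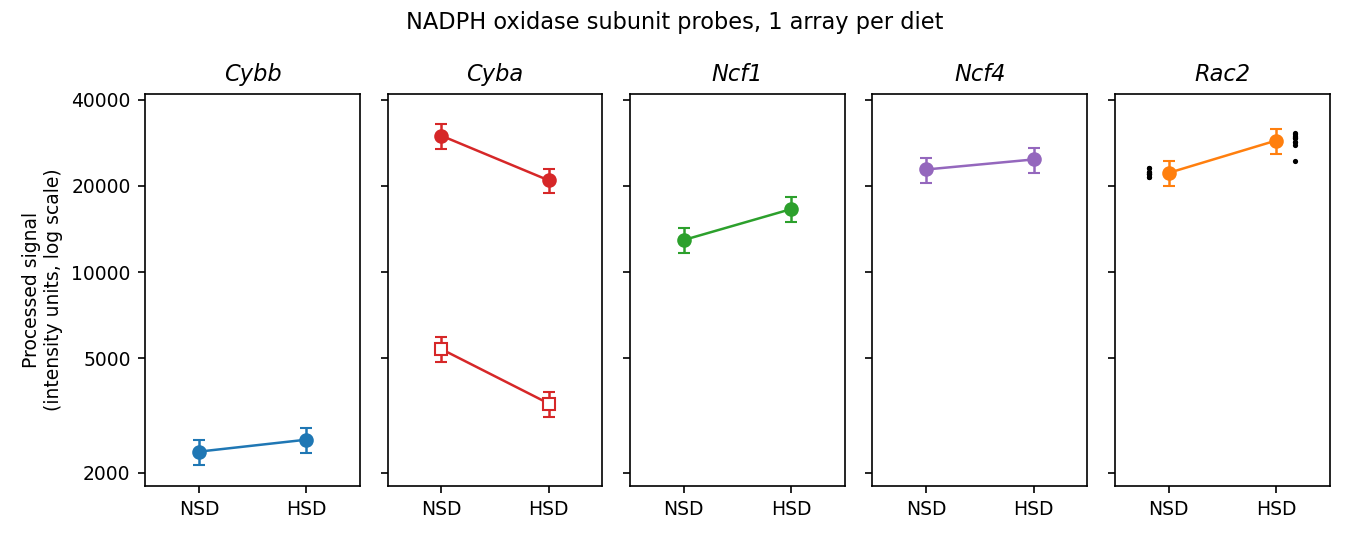
Processed signal (intensity units, log axis) of each subunit probe on the NSD and the HSD array, with the scanner software's error as bars; the open squares are the dimmer Cyba probe and the small black points the 10 single spots of Rac2. Both Cyba probes slope downwards, from 29933 to 20904 and from 5391 to 3481, and the other 4 subunits slope upwards.

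**Figure D2:**
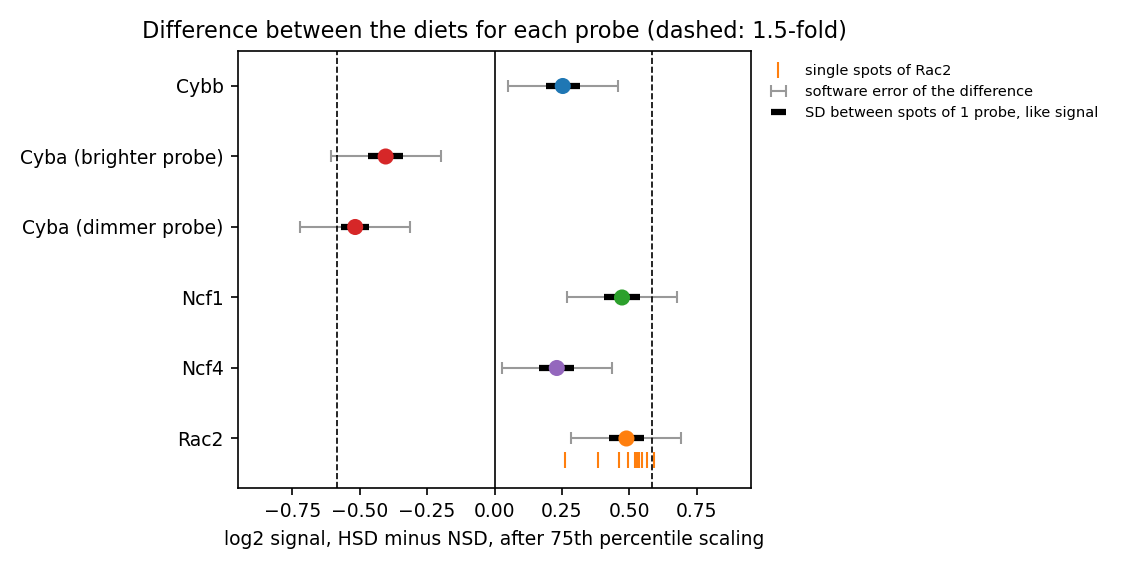
Log2 difference, HSD minus NSD, of each subunit probe; black bars are the SD between spots of 1 probe at like signal, grey bars the error given by the scanner software, orange ticks the single spots of Rac2, and dashed lines 1.5-fold. The Cyba probes lie at −0.40 and −0.52, the other subunits between 0.23 and 0.49, and no probe passes the dashed lines.

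Differences between subunits do not depend on a single scale factor per array, so the 10 pairs of subunits were also compared by the difference of their log2 changes, with the brighter probe of Cyba. Cyba stood apart from each of the other 4. Its change was 0.66 below that of Cybb, its partner in the membrane, which means that the signal of Cybb relative to Cyba was 1.58-fold higher on the HSD array. The spot SD of that difference was 0.090 and the software error 0.29, and it was between 0.65 and 0.70 under the 8 settings of the processing. The gap was 0.63 to Ncf4, 0.88 to Ncf1 and 0.89 to Rac2. The other subunits formed pairs of neighbours that did not differ beyond the spot error. Rac2 and Ncf1 had changes of 0.49 and 0.47, and Cybb and Ncf4 changes of 0.25 and 0.23. The gaps from one of these pairs to the other, from 0.22 to 0.26, were above the spot error of 0.066 to 0.094. They were below the 0.29 that the software error gives for a difference of changes. Where a gap involves Rac2, its part of the spot error is that of a mean of 10 spots, from the SD of probes of like signal. With normexp correction of the background, Ncf1 minus Ncf4 was 0.019 and Cybb minus Ncf1 was −0.053.

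Bright probes as a whole were slightly higher in the HSD group, and the subunits were set beside probes of like signal. The median log2 difference was 0.058 over the 27236 probes detected on both arrays and 0.089 over the 591 probes within 1 log2 unit of the brighter Cyba probe. Of those 591 probes, 2.71% were at least as low as Cyba. Of 2219 probes like the dimmer Cyba probe, 6.31% were at least as low. At the upper side, 6.29% of 588 like probes were at least as high as Rac2 and 9.11% of 1010 at least as high as Ncf1. The shares were 24.3% for Ncf4 and 32.8% for Cybb, which therefore lay inside the bulk of their neighbours. These shares describe probes on 2 arrays and are no test.

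**Figure D3:**
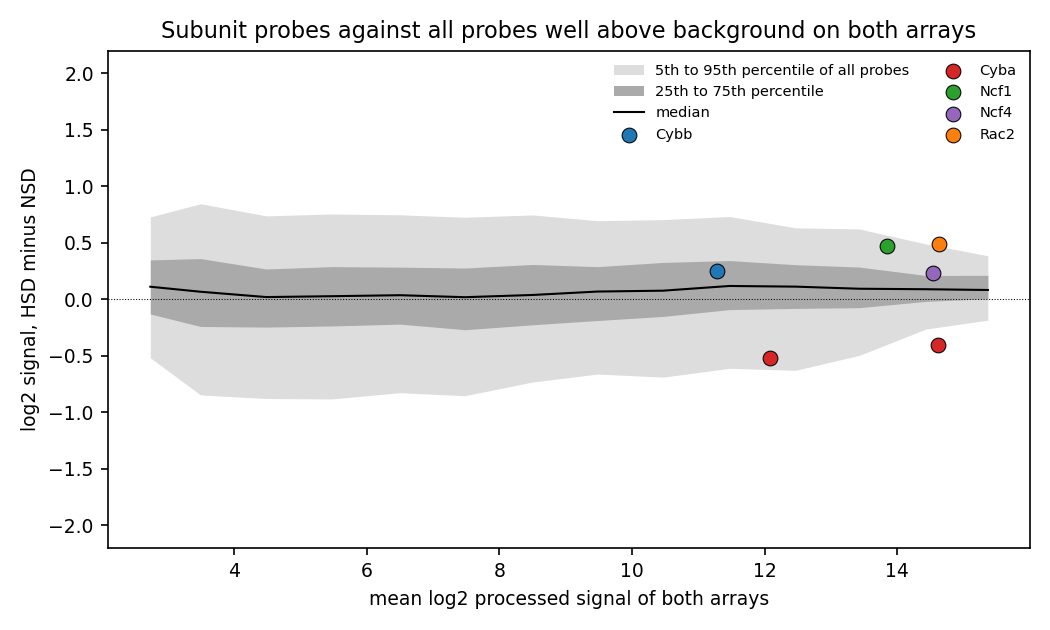
Log2 difference, HSD minus NSD, of the subunit probes (coloured points) over the mean log2 signal of both arrays, with the median and percentile bands of all probes detected on both arrays, taken in steps of 1 log2 unit. The brighter Cyba point (−0.40) lies below the outer band and the dimmer one (−0.52) inside it, Rac2 (0.49) lies at its upper edge and Ncf1 (0.47) inside it, and Cybb and Ncf4 lie at or near the inner band.

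The direction of each subunit was the same under all settings of the processing, and the sizes moved. The log2 difference lay between −0.54 and −0.39 for the brighter and between −0.62 and −0.51 for the dimmer probe of Cyba, between 0.35 and 0.50 for Rac2 and between 0.31 and 0.48 for Ncf1. It lay between 0.16 and 0.26 for Cybb and between 0.095 and 0.29 for Ncf4. The dimmer Cyba probe passed 1.5-fold under quantile normalization, cyclic loess and the deposited log2 values, and no other subunit probe did so under any setting.

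**Figure D4:**
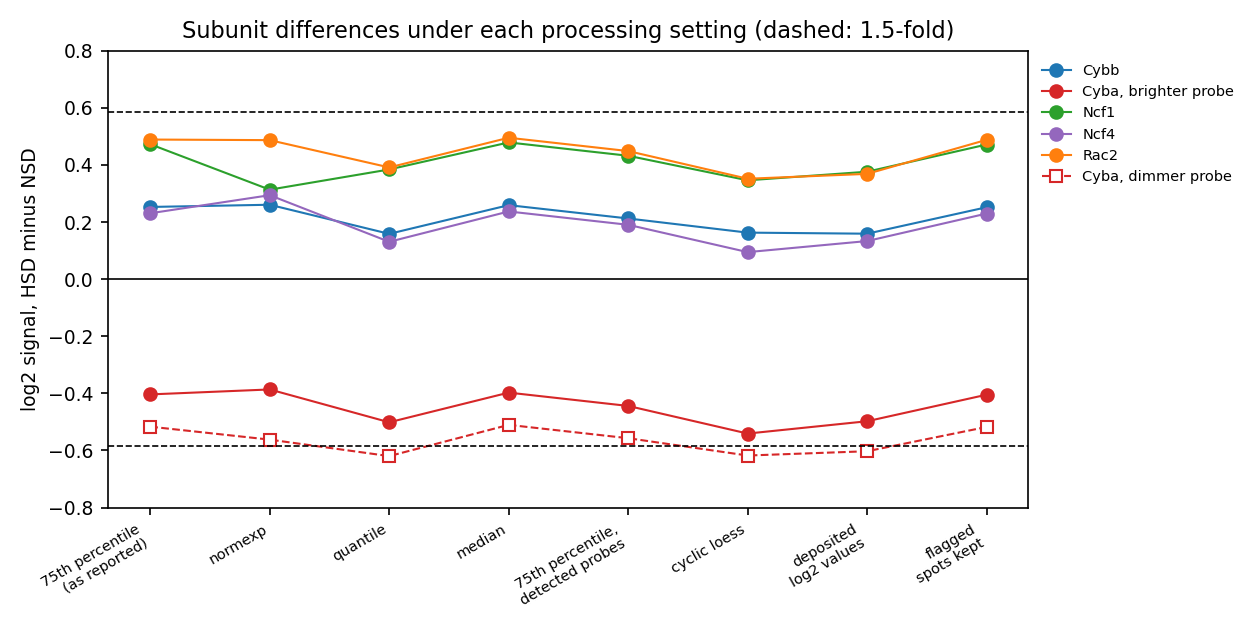
Log2 difference, HSD minus NSD, of each subunit under the reported processing and 7 alternatives, with 1.5-fold as dashed lines. The lines of Cyba stay below 0 and the others above 0, and the dimmer Cyba probe (open squares) crosses 1.5-fold under 3 alternatives.

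Other parts of the enzyme showed the same mixture of small differences. Of 5 further components, 3 were higher on the HSD array and 2 lower, none by 1.5-fold, with a median log2 difference of 0.27 against 0.045 over the 16312 genes with a usable probe. For the gene lists the background was that of the 16332 genes detected on one or both arrays, of which 9.85% were higher by 1.5-fold or more, 10.3% were lower by as much and 20.1% were past 1.5-fold either way. Hvcn1, the proton channel that balances the charge moved by the oxidase, had 8774 and 10884 (log2 difference 0.43), and its second probe 0.29. Cybc1, the chaperone of the Cybb and Cyba pair, had 2907 and 3233 (0.27), and Rap1a, a GTPase found with the core, 424.2 and 482.0 (0.30). Nrros, which lowers the level of the Cybb protein, had 6272 and 4496 (−0.37). Rac1, the widely expressed relative of Rac2, had probes that disagreed, at −0.073 for the brighter and 0.38 for the dimmer.

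The proteins that load Rac or switch on the complex are read beside all genes with a usable probe, of which 54.2% had a difference above 0. Bright probes as a whole were slightly higher in the HSD group, and the lists here and below were not set beside genes of like signal. Of 12 genes of Rac control, 10 were above 0, with a median of 0.24, and 1 was past 1.5-fold in each direction. That median lay between 0.13 and 0.25 under 7 alternatives. Elmo1, a partner of DOCK exchange factors, was higher (43.7 and 62.2, log2 difference 0.62), but below 1.5-fold with normexp correction and with scaling on detected probes. Dock1, one of those exchange factors, was lower (260.9 and 133.3, −0.85). Of 14 kinase genes around the oxidase, 10 were above 0 and 2 at least 1.5-fold higher, with a median of 0.24. The kinase median also lay between 0.13 and 0.25 under the alternatives. Prkcd, a protein kinase C that phosphorylates Ncf1, had 3061.5 and 4926 (0.80) on its brighter probe. Its dimmer probe had 0.58, just under 1.5-fold. Pik3cd, a leukocyte PI3-kinase, had 2711 and 3870 (0.63) on its brightest probe and 0.18 and 0.40 on its others. Its brightest probe was below 1.5-fold under quantile normalization, cyclic loess and the deposited values.

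Of 12 measured receptors that trigger the oxidase, 10 were above 0, with a median of 0.23, and 1 was past 1.5-fold in each direction. The receptor median lay between 0.12 and 0.25 under 7 alternatives. Fpr2, a receptor for formyl peptides, was higher (21167 and 31277, log2 difference 0.68), but below 1.5-fold under quantile normalization, cyclic loess and the deposited values. Fcgr1, the high-affinity receptor for IgG, was lower (304.7 and 21.9, −3.68, or −2.10 with normexp correction). Of the integrin pair Itgam and Itgb2, Itgb2 had a difference of 0.54. Itgam had 0.09 on its brightest probe and 0.07 and 0.47 on its others. Of 8 transcription factors known to act on oxidase genes, none reached 1.5-fold, and the median was 0.11. Spi1 (PU.1) had a difference of 0.23 and Irf8 of 0.085. Irf1 had −0.37 on its brighter and 0.16 on its dimmer probe.

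The oxidase draws on NADPH, and 2 of 6 genes of its supply were at least 1.5-fold higher, with a median of 0.33. They were G6pdx, the first enzyme of the pentose phosphate pathway (10666 and 18138, log2 difference 0.88), and Pgd, the next enzyme of that pathway to yield NADPH (17556 and 24403, 0.59). Pgd was below 1.5-fold under 4 of 7 alternatives, and G6pdx under none. Of 13 genes that handle superoxide and peroxide, 2 passed 1.5-fold in each direction and the median was 0.072. Sod2, the mitochondrial superoxide dismutase, had 6196 and 11558.5 (1.01), and Sod1, the cytosolic one, 6351 and 9153 (0.64), which was below 1.5-fold under 3 of 7 alternatives. Mpo, the peroxidase of neutrophil granules, had 3536 and 1723 (−0.92). Epx, that of eosinophils, was at least 2.76-fold lower (13.7 with the NSD and below detection with the HSD), but its difference was −0.20 with normexp correction.

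Of the other NADPH oxidases and their partners, few were detected. Of the 9 listed genes 7 had a probe (Duox2 and Duoxa1 did not), and Nox1, Nox3 and Duoxa2 were not well above background on either array. Nox4, a relative best known outside phagocytes, was lower by at least 7.34-fold with the HSD (34.9 against a signal below detection), but its log2 difference was −0.73 with normexp correction, and its second probe had 0.08. Noxa1, an activator of other NADPH oxidases, had 22.1 and 43.6, past 1.5-fold, but its log2 difference was 0.44 with normexp correction. Noxo1 (−0.14) and Duox1 (−0.17) were the other usable genes.

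**Figure D5:**
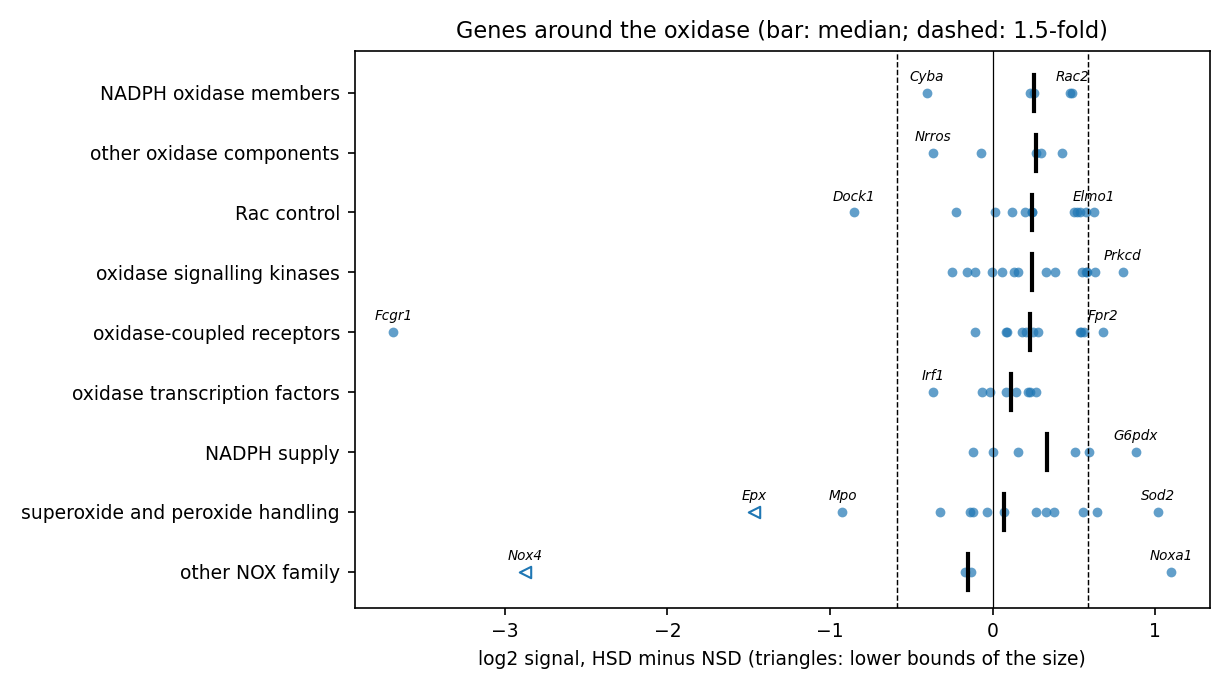
Log2 difference, HSD minus NSD, of each gene with a usable probe in 9 lists around the oxidase (brightest probe of a gene; open triangles are lower bounds of the size, black bars medians, dashed lines 1.5-fold). Cyba (−0.40) and Nrros (−0.37) lie to the left of the other subunits and components, G6pdx (0.88) and Sod2 (1.01) to the right of the line, and Fcgr1 (−3.68) far to the left.

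The labelled cell type was checked against markers, since neutrophils, eosinophils and B cells also hold the oxidase. Of 8 monocyte markers with a probe, all were well above background for both diets, and 1 was past 1.5-fold on the higher and 2 on the lower side. Among the 8 were Itgam, the gene of CD11b, and Ly6c1, a gene of Ly6-C, the antigens that define the cells. Ly6c1 had a log2 difference of 0.018 on its brighter and −0.42 on its dimmer probe. Ly6c2, also listed, had no named probe. All 12 neutrophil markers with a probe were also well above background, with signals from 1606 to 61817 with the NSD and from 1412 to 59920 with the HSD. Among them were Camp, S100a8, S100a9, Csf3r and Ltf. The sum of the 12 was 384764 and 373642 intensity units. Sums of markers, here and below, add signals of different probes before scaling, so they do not measure a difference between the diets. Of the 12 genes, 1 (Mpo) was lower by 1.5-fold or more, and their median log2 difference was 0.074. With the scaling used here, single neutrophil markers ranged from −0.92 (Mpo) to 0.51 (Cxcr2), with 8 above 0 and 4 below. Under 7 alternatives the median of the list lay between −0.080 and 0.083, so its sign depended on the processing. The cells labelled M-MDSC thus carried RNA of neutrophil granule proteins in both groups, and Ly6g itself had no named probe. Among 6 macrophage markers 4 were past 1.5-fold on the lower side, Mrc1 (−4.50), C1qc (−3.11), Mertk (−2.52) and C1qa (at least 2.56-fold). Adgre1 had −0.55 on its brighter and −0.25 on its dimmer probe, C1qb had 0.33, and the sum was 7069 and 4341. With normexp correction the differences were smaller, −1.56 for Mrc1, −0.74 for C1qc and −1.01 for Mertk, and C1qa was below 1.5-fold. Of the monocyte markers, the lower ones were Fcgr1, given above, and the chemokine receptor Ccr2 (258.9 and 139.0, −0.78), while Cd14 was higher (2337 and 3804, 0.82), and the sum of the 8 monocyte markers was 108574 and 104490.

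Of 8 eosinophil markers, 5 were past 1.5-fold on the lower side, among them Prg2 (167.6 and 49.4, log2 difference −1.65), Ccr3 (−1.21) and Epx, with a sum of 1029 and 816. With normexp correction 1 of these 5, Prg2 (−1.003), was past 1.5-fold. Prg3, like Epx, was below detection in the HSD group. With the scaling used here, 2 of the 8 were above 0, Il5ra (330.3 and 370.1, log2 difference 0.28) and Siglecf (247.3 and 248.1, 0.12). The second probe of Siglecf had 0.42, and its brighter probe had −0.039 with normexp correction. None of 5 B cell markers reached 1.5-fold (sum 6131 and 7134, median 0.40), and Cd79b, for one, had 3519 and 4080. For the subunits, which several myeloid cells share, the part of the cells behind these marker lists in the differences was not tested.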

How the data were processed

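For each diet the authors deposited the scanner output of 1 array, read with Agilent Feature Extraction 11.0.1.1. Its processed signal and error are intensity values from which the software had removed background and spatial trend, and the arrays were not normalized to each other. The median spot and background intensity that the authors deposited served for the normexp alternative. The authors also deposited normalized log2 values, made with GeneSpring by a method not named in the sources used here. Their mean (5.58), SD (3.36) and median (4.61) are equal on both arrays. The deposited values served as an alternative. For the subunits they gave differences close to those of quantile normalization, so these settings are not separate checks.

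Control spots and flagged spots (162 NSD, 179 HSD) were dropped, log2 signals were averaged per probe, and each array was scaled by its 75th percentile over non-control probes. A probe counted as well above background when 50% or more of its spots did (28330 probes NSD, 28534 HSD). Unversioned transcripts were matched to RefSeq (GRCm38.p6), which named 27223 probes; the array design names mm9, so probe coordinates are left out. A gene took its brightest probe. Where a probe was detected on 1 array only, its fold is a bound against its dim signal or the detection limit of that array (4.61 units NSD, 4.39 HSD), whichever was higher. The calling step was run on simulated data with planted differences larger than the threshold, which checks the code and not the error of the calls. The rule named the subunits with every probe, the further components (1 listed gene is not reported here), listed genes past 1.5-fold, and markers of monocytes, neutrophils, eosinophils and B cells; a few more genes, and the promoter motifs, were chosen with their values known. The members and lists were chosen with earlier results of these data known. Alternatives were normexp (offset 50), quantile normalization, median centring, the 75th percentile of probes detected on both arrays, cyclic loess, the deposited values, flagged spots kept, the median over a gene's probes, other filters on dim probes and a 2-fold threshold. Python 3.11.15, numpy 2.4.6, pandas 2.3.3, matplotlib 3.10.9, R 4.3.3 and limma 3.58.1 were used.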

Additional observations from a re-analysis of the deposited data

How the results depend on the processing

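Median centring, flagged spots kept and the 75th percentile of detected probes moved no subunit by more than the spot SD. Normexp correction moved Ncf1 to 0.31. With quantile normalization the log2 differences were 0.16 for Cybb, −0.50 and −0.62 for the brighter and dimmer Cyba probe, 0.38 for Ncf1, 0.13 for Ncf4 and 0.39 for Rac2. With cyclic loess they were 0.16, −0.54, −0.62, 0.35, 0.095 and 0.35, and with the deposited values 0.16, −0.50, −0.60, 0.38, 0.13 and 0.37, in the same order. The median over the 5 genes, 0.25 as reported, was 0.16 under each of these 3, and 1 subunit probe, the dimmer one of Cyba, was then past 1.5-fold. The cause of these shifts was not tested. Among all probes, normexp correction left 961 higher and 923 lower calls of 3030 and 2639. No paired analysis was possible because each diet has 1 array and the labels give no replicate numbers, and no array could be left out. The number of arrays limits every value, and signals near background, such as those of Nox4 and Epx, moved with the background correction.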

Other observations

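The 6 carcinoma markers summed to 155 (NSD) and 143 (HSD) intensity units before scaling. Of these markers 3, Epcam, Krt8 and Krt18, passed 1.5-fold on the higher side, none of them with normexp correction. Krt8 was below 1.5-fold under 5 of 7 alternatives. Krt5 (log2 difference −0.54) and Cdh1 (−0.43) were lower in the HSD group, by less than 1.5-fold, and Krt14 had 0.069. Of 4 usable fibroblast markers, Col3a1 and Dcn passed 1.5-fold on the lower side, neither with normexp correction, and the list summed to 141 and 108. By its brightest probe, no endothelial marker of 4 reached 1.5-fold, but the probes of Kdr disagreed, with 150.1 and 168.7 (log2 difference 0.28) on one and 124.2 and 20.4 (−2.49) on the other. Of 5 usable dendritic cell markers, Clec9a was past 1.5-fold on the higher and Cd209a on the lower side, neither with normexp correction, while the probes of Siglech disagreed, with 13705 and 13214 (0.062) on one and 30.7 and 21.3 (−0.41) on the other. Of 6 usable T and NK cell markers, Cd3e was lower (114.7 and 49.8, log2 difference −1.09), and Cd3d had 1501 and 1871 (0.43).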
